A study of Mus musculus with 8 samples.

Results

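The cytosolic ribosomal protein genes were followed in sympathetic ganglia of mouse embryos that had lost or reduced ISL1. They were chosen by symbol alone: every listed gene named *Rpl* or *Rps* with a number, *Rplp* with a number, or *Rpsa*, without the *Rps6k* kinases and without symbols marked as pseudogenes. The rule found 85 of the 14189 genes in the 2 deposited tables. Of these, 83 were listed among 13506 genes at E11.5, 77 among 13413 genes at E14.5, and 75 at both stages. One of them, *Rps19bp1*, carries such a symbol but encodes a binding partner of the ribosomal protein Rps19 and no ribosomal protein.

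A ribosome joins a small subunit, which reads the mRNA, to a large subunit, which forms the peptide bonds. Each subunit is built on ribosomal RNA and holds nearly all of its proteins as single copies, so the proteins are needed in like amounts, and their mRNAs are among the most abundant of a growing cell. The P stalk, made of Rplp0, Rplp1, and Rplp2, is the flexible arm of the large subunit that receives the elongation factors. Most of these mRNAs begin with a C that is followed by a run of C and T letters, the 5′ terminal oligopyrimidine (TOP) tract, through which mTORC1 sets how much of the mRNA is translated. In the mouse genome many ribosomal protein genes have left processed copies, which are intronless DNA copies of the mRNA.

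Ganglia were compared between *Isl1* CKO embryos (Wnt1-Cre;*Isl1* f/f) and controls (Wnt1-Cre;*Isl1*+/+, labelled as wild type) at E11.5, both with Wnt1-Cre and the Rosa26-tdTomato reporter. At E14.5, *Isl1* hypomorphic embryos (*Isl1* f-neo/f-neo), which keep a reduced expression of the gene, were compared with wildtype embryos (*Isl1*+/+). Wnt1-Cre deletes in the whole neural crest lineage, so the *Isl1* gene is deleted in neurons and glia of the CKO ganglia alike. Whether the glia express it is not shown by these values. Each genotype had 2 libraries, 8 in all, each from the pooled ganglia of about 10 or more embryos, and the deposited tables hold 1 value per genotype and stage with the libraries combined. A difference between 2 columns therefore has no replicate check here, no test was made, and the depth behind each value is unknown.

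All values are FPKM, fragments per kilobase of transcript scaled to the mapped fragments of the library, so levels are given per length. At E14.5 the levels of different members also went with copies of their sequence in the genome, as given below. Their order at that stage need not be an order of expression. Ratios are log2 of (FPKM + 0.1) in the mutant over (FPKM + 0.1) in the control, and a ratio past 1.5-fold was counted. *Isl1* itself was listed at 133 FPKM in controls and 40.0 FPKM in the CKO, and at 162 in wildtype and 83.1 in hypomorphic embryos. Sympathetic identity was visible in every column, with *Dbh*, the enzyme that makes noradrenaline, between 543 and 608 FPKM. In dissected ganglia, a change in the share of cells of one type and a change in RNA per cell cannot be told apart.

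Of the genes listed at only 1 stage, 8 stood only in the E11.5 table. They were *Rpl3*, *Rpl9*, *Rpl17*, *Rpl23a*, *Rpl29*, *Rps28*, *Rps27rt*, and a row that joins *Rps27* with *Rps27rt*. The first 6 are single-copy proteins of the ribosome core and were far from silent at E11.5, with control values between 562 FPKM for *Rpl29* and 1353 FPKM for *Rps28*. Only *Rpl34* and *Rps27* stood in the E14.5 table alone, at 8.59 and 2.93 FPKM in wildtype ganglia. As the tables hold no gene under 1 FPKM in both columns, a gene without a row either fell under that level or was joined or named otherwise. No member was listed at 0.

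*Rps27* and an identical copy had different rows in the 2 tables. The gene for this small-subunit protein lies on chr3:90016593-90017573 (mm9, minus strand), and a single-exon copy that is itself annotated as a gene, *Rps27rt*, lies on chr9:114891515-114891858 (mm9, minus strand). Their coding sequences are identical over all 255 bases, whereas that of the paralog *Rps27l*, on chr9:66793893-66797323, differs at 61 of 255. Coding bases 6 to 35 are shown because they hold 13 of those differences, with each *Rps27l* base that differs from *Rps27* in capitals:
Rps27: tctcgcaaaggatctccttcatccctctcc
Rps27rt: tctcgcaaaggatctccttcatccctctcc
Rps27l: CctGgcTaGAgatctGTtAcaCccTtcCTT
At E11.5 the control and CKO values under *Rps27rt* were 1437 and 2205 FPKM, while the joined row held 43.1 and 31.4. At E14.5 *Rps27rt* had no row, and *Rps27* stood at 2.93 and 3.58 FPKM. *Rps27l*, which differs from both, was 128 and 135 FPKM at E11.5 and 91.4 and 98.7 at E14.5.

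At E11.5 the ribosomal protein genes were among the most abundant transcripts of the ganglia. Control values ran from 22.2 to 2245 FPKM with a median of 756, and 51 of the 100 highest control values belonged to them, against 60 in CKO ganglia. Highest was *Rpl41*, which encodes a very short peptide of the large subunit, at 2245 FPKM in control and 3425 in CKO. It was followed by *Rps26*, a protein of the mRNA exit channel, at 2089 and 2809, *Rplp1* at 1663 and 2800, *Rpl28* at 1476 and 2378, and *Rps2*, at the mRNA entry, at 1176 and 2569. Lowest were *Rps19bp1*, the paralogs *Rpl7l1* and *Rps4l*, the joined *Rps27* row, and *Rpl26*, a protein near the peptide exit of the large subunit, which stood at 43.7 and 70.1 FPKM. *Rps15a* and *Rpl30*, 2 more proteins that every ribosome holds, were as low, at 52.6 and 58.4 FPKM in controls. The order of the genes was nearly the same in both genotypes (Spearman's rho 0.96 over 83 genes, a description across genes of the same tables).

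**Figure D1:**
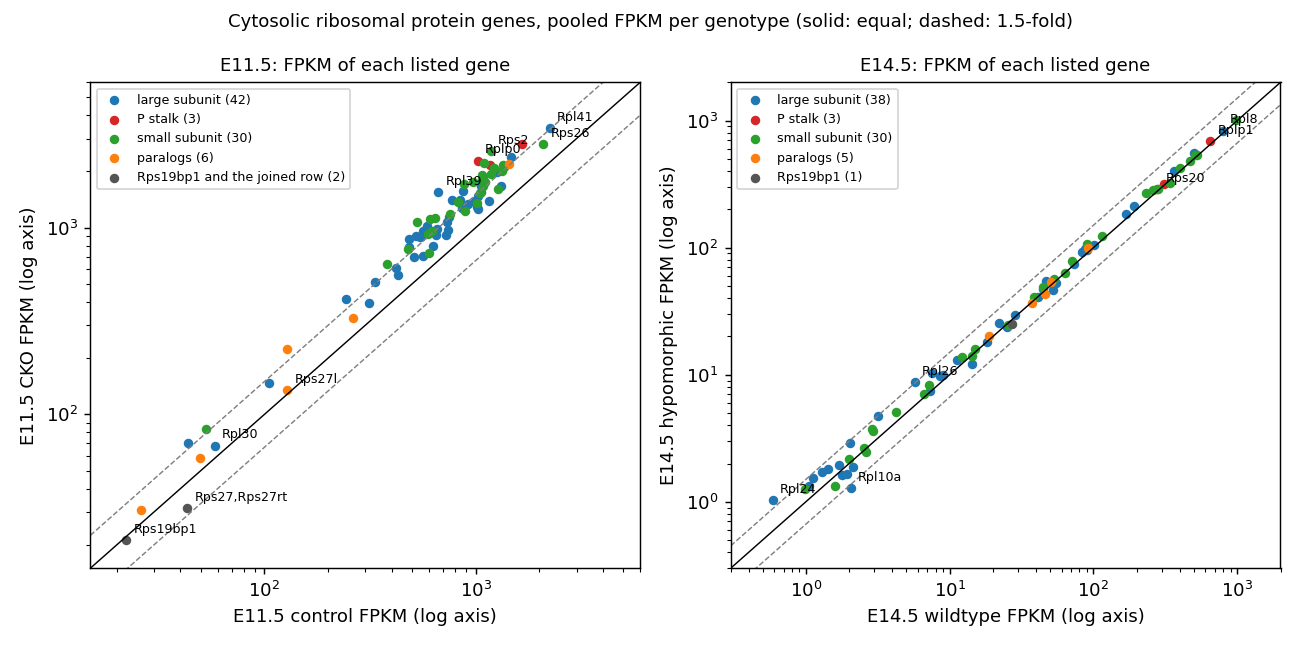
FPKM of each ribosomal protein gene in control (x axis) and mutant ganglia (y axis), on log axes, at E11.5 (left) and E14.5 (right); each point is 1 gene, coloured by its part of the ribosome, the solid line marks equal values and the dashed lines 1.5-fold. At E11.5, 81 of 83 points lie above the line of equal values, and at E14.5 most points lie near it, from 0.590 FPKM (*Rpl24*) to 982 FPKM.

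In *Isl1* CKO ganglia at E11.5, 81 of 83 genes had a higher FPKM than in controls. So had 7279 of all 13506 genes and 572 of the 815 with a mean FPKM of 100 or more. The median log2 ratio was 0.64 (quartiles 0.44 and 0.77, range -0.46 to 1.23), against 0.05 over all genes and 0.20 over the 815 genes with a mean FPKM of 100 or more. Past 1.5-fold, 50 of 83 were higher, where 18.9% of all genes and 21.2% of the abundant genes were. None was past 1.5-fold lower, where 12.9% of all genes and 7.36% of the abundant genes were. The abundant genes include ribosomal protein genes. Without these, 16.9% of 739 abundant genes were past 1.5-fold higher and 8.12% lower, with a median of 0.18. At 1.2-fold, 76 were higher, against 34.8% of all genes and 45.2% of the abundant genes, and 1 was lower, against 27.5% and 16%. Summed, the genes held 13.8% of the FPKM of the control column and 16.8% of that of the CKO column.

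All 3 genes of the P stalk were past 1.5-fold. *Rplp0*, its base on the ribosome, had 1025 FPKM in the control and 2285 in the CKO column (log2 ratio 1.16). *Rplp2* was 1168 and 2172 (0.90), and *Rplp1* was 1663 and 2800 (0.75), so the lowest CKO value of the stalk genes was above the highest control value among them.

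The small subunit stood between the stalk and the rest of the large subunit. Of its 30 listed genes, all were above 0 and 24 past 1.5-fold, with a median of 0.69. *Rps2* was 1176 FPKM in control and 2569 in CKO (1.13). *Rps20*, of the subunit's head, was 1090 and 2229 (1.03). *Rps23*, which sits in the decoding center, was 528 and 1077 (1.03), and *Rpsa*, also known as a laminin receptor precursor, was 885 and 1712 (0.95). Past 1.5-fold as well, with ratios from 0.60 to 0.87, were among others *Rps3*, *Rps4x*, *Rps7*, *Rps9*, *Rps10*, *Rps12*, *Rps13*, *Rps14*, *Rps15*, *Rps15a*, *Rps16*, *Rps18*, *Rps19*, *Rps21*, *Rps27a*, *Rps28*, and *Rps29*. The lowest ratios of this subunit were those of *Rps25* at 0.28 and *Rps24* at 0.35.

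In the large subunit all 42 listed genes were above 0 and 21 were past 1.5-fold, with a median of 0.58. *Rpl39*, a short protein of the peptide exit tunnel, had the steepest ratio of all members, at 664 FPKM in controls and 1555 in CKO ganglia (1.23). *Rpl12*, of the stalk base, was next at 774 and 1400 FPKM (0.85). Past 1.5-fold as well, with ratios from 0.59 to 0.84, were among others *Rpl7*, *Rpl9*, *Rpl10*, *Rpl10a*, *Rpl13*, *Rpl13a*, *Rpl23*, *Rpl23a*, *Rpl24*, *Rpl26*, *Rpl27*, *Rpl28*, *Rpl31*, *Rpl32*, *Rpl35a*, *Rpl37*, *Rpl37a*, and *Rpl41*. At the low end, *Rpl30* was 58.4 and 68.0 (0.22), *Rpl35* was 1159 and 1389 (0.26), and *Rpl4* was 1026 and 1255 (0.29). Whether the distance of the large to the small subunit exceeds the spread between libraries could not be tested.

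The paralogs, close relatives of a canonical protein, had a lower median. Of 6 listed, all were above 0 and 2 past 1.5-fold, with a median of 0.28. *Rpl22l1*, the paralog of *Rpl22*, was 128 FPKM in control and 225 in CKO (0.82), whereas *Rpl22* itself was 105 and 148 (0.49). The ratio of *Rpl22l1* to *Rpl22* FPKM was thus 1.22 in control and 1.52 in CKO ganglia, and 0.558 and 0.562 in the E14.5 columns. Of the 90-base windows of the coding sequence, 63.6% for *Rpl22l1* and 1.01% for *Rpl22* occur letter for letter elsewhere in the genome, a share that went with the levels between stages, and its part in this ratio was not tested. *Rps27rt*, identical in coding sequence to *Rps27*, had the ratio 0.62. The other paralogs were *Rpl36al* at 0.32 (262 and 328 FPKM), *Rpl7l1* at 0.24 (26.1 and 30.8), *Rps4l* at 0.24 (49.5 and 58.3), and *Rps27l* at 0.08 (128 and 135). Their coding sequences matched those of the canonical partner at 68.2% of aligned bases for *Rpl22l1*, 87.9% for *Rpl36al*, 54.1% for *Rpl7l1*, 79.8% for *Rps4l*, and 76.1% for *Rps27l*.

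Only the joined *Rps27* row (43.1 and 31.4 FPKM, -0.46) and *Rps19bp1* (22.2 and 21.2 FPKM, -0.06) were lower in CKO ganglia, and neither is a plain row of a canonical ribosomal protein gene.

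**Figure D2:**
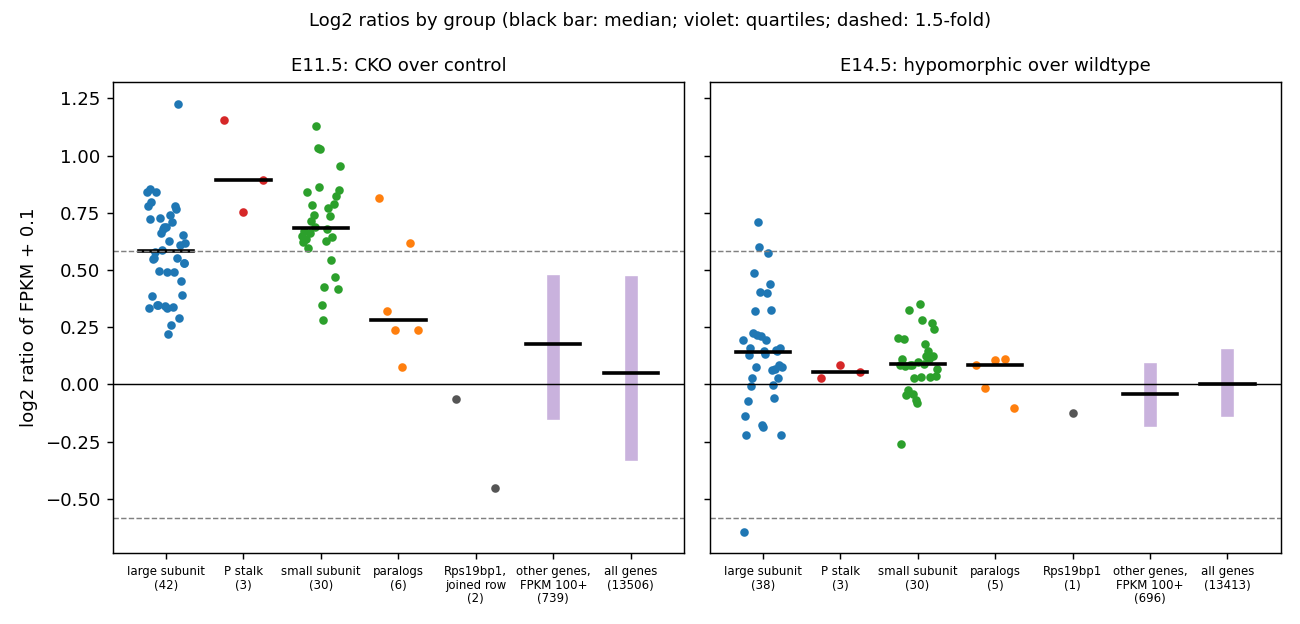
Log2 ratios of FPKM + 0.1 at E11.5 (left, CKO over control) and E14.5 (right, hypomorphic over wildtype) for each gene, by part of the ribosome, with the number of genes in brackets; black bars are medians, violet bars the quartiles of the other genes with a mean FPKM of 100 or more and of all genes, dashed lines 1.5-fold. At E11.5 the medians are 0.58 for the large subunit, 0.90 for the P stalk, 0.69 for the small subunit, and 0.28 for the paralogs, and at E14.5 they are 0.14, 0.06, 0.09, and 0.09.

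Members known from disease, from mouse mutants, or by position were read as subsets. *Rpl5*, *Rpl11*, and *Rpl23*, whose proteins bind Mdm2 when ribosome assembly stalls, had E11.5 ratios of 0.45, 0.33, and 0.73. Of the 18 listed genes mutated in Diamond-Blackfan anemia, an inherited failure of red cell production, 18 were above 0 and 11 past 1.5-fold, with a median of 0.65. Their ratios ran from 0.26 for *Rpl35* to 0.82 for *Rps7*, and *Rps19*, the gene first tied to the disease, was 478 FPKM in control and 771 in CKO (0.69). The X-linked genes *Rpl36a*, *Rps4x*, *Rpl10*, and *Rpl39* had ratios of 0.49, 0.64, 0.84, and 1.23. Of 6 genes with a known skin, tail, or skeletal phenotype in mutant mice, 4 were past 1.5-fold (66.7%, also near the share of all members), with a median of 0.64. Among them *Rpl38* (tail short) was 1061 and 1556 FPKM (0.55), *Rpl24* (belly spot and tail) was 655 and 983 (0.59), and *Rpl27a* was 629 and 797 (0.34).

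Markers of other cell types moved in the same columns. Of 17 erythroid markers, 14 were listed at E11.5 and 13 were past 1.5-fold higher in CKO ganglia, their summed level being 10892 FPKM in control and 69127 in CKO, or 2.29% and 11.2% of the column. *Hba-x*, an embryonic globin, was 2572 and 53630 FPKM, whereas *Hbb-y*, another, was 7552 in control and listed at 0 in CKO. Of the 815 genes with a mean FPKM of 100 or more, 4 were listed at 0 in control and 6 in CKO. Whether such a 0 marks absent RNA or a missing value was not tested, and the CKO sum counts *Hbb-y* as 0. The part of red cells in the ribosomal protein result was not tested. With the CKO column rescaled to the control sum without the erythroid genes, the median of the ribosomal protein genes was 0.40, and that of all genes was -0.18. Then 79 of 83 genes stayed above 0, 14 were past 1.5-fold higher, and 1 was past it lower, where 12.2% and 22.5% of all genes were under this rescaling. The distance between both medians was 0.58 with and without the rescaling, since it moves all genes by nearly the same amount.

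The column sums themselves differed, at 476289 FPKM in control and 617263 in CKO ganglia. Rescaled to equal sums without the ribosomal protein genes, 73 of 83 stayed above 0, with a median of 0.31 against -0.27 over all genes. Under this rescaling 6 were past 1.5-fold higher and 1 lower, where 10.3% and 27.2% of all genes were, so the count of members past 1.5-fold higher was no longer above the background. Neural crest and glial markers were past 1.5-fold higher for 8 of 8 genes (summed 178 and 395 FPKM) and mesenchyme markers for 5 of 8 (579 and 1008 FPKM). Macrophage markers were past it for 4 of 4 listed (20 and 46 FPKM), and yolk sac and trophoblast markers for 5 of 6 (5 and 66 FPKM), with *Prl8a2*, a placental hormone, at 0.241 and 48.4 FPKM. Endothelial markers were past it for 1 of 6 (55 and 71 FPKM). Sympathetic neuron markers were below 0 for 8 of 10 (2890 and 2554 FPKM), and proliferation genes for 12 of 12 (1390 and 855 FPKM), with a median of -0.61. The part of each of these in the ribosomal protein result was not tested.

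Genes that work with the ribosome were read from lists. Of 17 translation factors and related proteins with TOP mRNAs, 16 were above 0, with a median of 0.61. Past 1.5-fold higher were 9 (52.9%), where 18.9% of all genes were. *Tpt1*, which encodes the translationally controlled tumor protein, was 1554 FPKM in control and 4096 in CKO (1.40). *Pabpc1*, the poly(A)-binding protein, was 280 and 681 (1.28), and *Eef1a1*, the factor that brings aminoacyl-tRNA, was 5034 and 8390 (0.74). Only *Hnrnpa1*, a splicing regulator, was below 0, at 380 and 294 FPKM (-0.37), and *Nap1l1*, a histone chaperone, was next lowest at 437 and 468 (0.10). All 3 listed ribosomal proteins outside the symbol rule were past 1.5-fold, among them *Fau* at 0.64 and *Gnb2l1*, the small-subunit scaffold also called Rack1, at 0.88.

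Initiation factors outside the TOP list had a median of 0.04, with 16 of 29 above 0 and 0 past 1.5-fold. *Eif3e*, *Eif3f*, *Eif3h*, *Eif3k*, and *Eif4b* were counted with the TOP factors instead. Their ratios ran from 0.21 for *Eif4b* to 0.85 for *Eif3f*, with *Eif3f* and *Eif3k* (0.73) past 1.5-fold higher. The distance between the TOP and initiation lists thus rests in part on this split. Among the 29, *Eif4g3* (-0.57) and *Eif4g1* (-0.52), scaffolds of the cap-binding complex, were at the low end. *Eif3m* (0.46) and *Eif3i* (0.47), of the eIF3 complex, were at the high end of the 29.

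Most genes that build ribosomes were below 0. Of 65 listed ribosome biogenesis genes, 53 were below 0, with a median of -0.22, where 6227 of all 13506 genes were below 0. Past 1.5-fold, 7 were lower (10.8%), no more than the 12.9% of all genes. None was past it higher, where 18.9% of all genes were. *Nolc1*, a nucleolar chaperone of small nucleolar RNPs, was 44.6 and 20.8 FPKM in control and CKO (-1.09). *Mdn1*, an ATPase that matures the large subunit, was 6.01 and 3.23 (-0.88), and *Tcof1*, the treacle protein of ribosomal DNA transcription, was 15.9 and 8.92 (-0.83). At the upper end stood *Emg1* (0.35) and *Pno1* (0.32), both of which act on the small subunit.

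The RNA polymerase I list had a median of -0.17 over 14 genes. Past 1.5-fold lower were 2 (14.3%, near the 12.9% of all genes): *Cd3eap* (-0.66), a polymerase subunit, and *Ubtf* (-0.60), a factor that opens ribosomal DNA. *Polr1c* (0.42) and *Polr1d* (0.41), subunits shared with RNA polymerase III, were its highest. In the Myc family, *Mycn*, a driver of ribosome production in sympathoblasts, was 56.0 FPKM in control and 30.3 in CKO (-0.88), *Mxd3* had -0.46, and *Mxi1* (0.49) and *Mxd4* (0.74) were highest. Of the genes that oppose Myc, *Mxd3*, *Mnt* (-0.37), and *Mxd1* (-0.10) were thus below 0 and *Mxi1* and *Mxd4* above.

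Of 16 genes of mTORC1 and TOP mRNA control, 12 were below 0 and 4 past 1.5-fold lower, with a median of -0.37. *Tial1*, an RNA-binding protein that holds TOP mRNAs back under stress, was 21.6 and 9.17 FPKM (-1.23), and *Larp1*, which binds the TOP cap, was 42.0 and 24.5 (-0.78). *Akt1s1* (0.46), an inhibitor of mTORC1, and *Eif4ebp1* (0.54), a repressor of cap-dependent translation, were the highest. With the erythroid genes left out of the scaling, the TOP factors had a median of 0.38 and the biogenesis genes one of -0.46, while that of the initiation factors turned to -0.20.

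**Figure D3:**
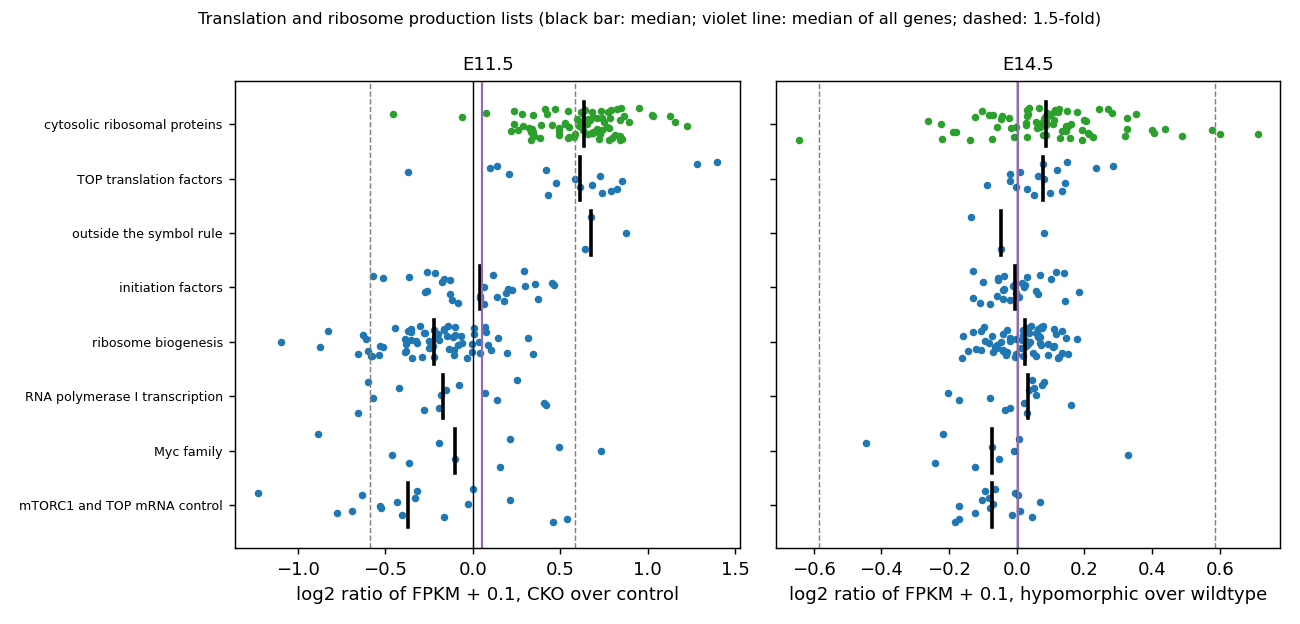
Log2 ratios of FPKM + 0.1 for the ribosomal protein genes (green) and for lists of related genes (blue), at E11.5 (left, CKO over control) and E14.5 (right, hypomorphic over wildtype); each point is 1 gene, black bars are medians, the violet line is the median of all genes and dashed lines mark 1.5-fold. At E11.5 the TOP translation factors have a median of 0.61 and the ribosome biogenesis genes one of -0.22, and at E14.5 all listed medians lie between -0.07 and 0.09.

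What the ribosomal protein genes share at their start was read from reference promoters (RefSeq, GRCm38.p6), which were found by symbol for 63 members, 57 of them canonical. An unbroken run of at least 5 C or T letters that opens with C, beginning within 10 bases of an annotated start, was present for 34 of the 57 canonical genes (59.6%) and for 34.4% of all 27025 genes with a promoter. For runs of at least 8 letters the shares were 40.4% and 9.43%, and for runs within 2 bases of the start they were 35.1% and 10.6%. Letters were counted from such a C onward, so further C or T letters may stand before it. In 5 members the count from a C on the annotated start was 9 letters or more. The base before the start is also C or T in all 5, so their unbroken runs begin further upstream. The counted letters are shown in capitals, with the 8 bases before them:
Rpl15: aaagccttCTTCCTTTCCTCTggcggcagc
Rpl35: gccctttcCTCTTTCTCTCgaaccaggctg
Rps10: gcacgcccCTTCCTTTCCagcctccgcctc
Rps18: cttccgctCTCTCTTCCacaggaggcctac
Rps6: agtcgggcCTCTTTTTCgtgacgcctccca
These windows lie on chr14:18270965-18270994, chr2:39005110-39005139, chr17:27635223-27635252, chr17:33955644-33955673, and chr4:86857346-86857375 (GRCm38.p6, all minus strand). Their E11.5 ratios were 0.55 for *Rpl15*, 0.26 for *Rpl35*, 0.65 for *Rps10*, 0.74 for *Rps18*, and 0.47 for *Rps6*, the protein that S6 kinases phosphorylate, so the length of the printed run did not order them.

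Among the genes with the highest E11.5 ratios that had a promoter entry, *Rps2*, *Rpl39*, and *Rps23* had such a run, each away from the annotated start, and *Rplp0* had none within 10 bases. In *Rps2* a run of 6 letters began 4 bases after the start, and in *Rpl39* one of 5 letters began 4 bases before it:
Rps2: atctcgcgCTTCTTggagcactataaattg
Rpl39: aagctccgCCTCTagcgacttcttctaatc
They lie on chr17:24720059-24720088 (plus strand) and chrX:37085205-37085234 (minus strand), GRCm38.p6. A second letter pattern was common in the 300 bases around the start: CCGGAA, the core read by ETS factors, on either strand, was in 56.1% of the 57 canonical promoters and in 16.7% of all. TCTCGCGA, also on either strand, was in 19.3% and 1.13%. Both patterns may fall within the same promoter, and a match is a description of letters, not of binding.

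At E14.5 the same genes lay close to equality. In hypomorphic ganglia 58 of 77 were above 0, with a median of 0.09 (quartiles 0.03 and 0.19), against 0.00 over all genes and -0.04 over genes with a mean FPKM of 100 or more. Of all 13413 genes 6799 were above 0, and of the 715 with a mean FPKM of 100 or more 287 were. Past 1.5-fold, 2 were higher, where 2.89% of all genes were, and 1 was lower, where 2.12% were. Among genes with a mean FPKM of 100 or more these backgrounds were 3.64% and 5.17%, and 3.74% and 5.32% without the ribosomal protein genes in that set. At 1.2-fold, 13 were higher and 1 lower, against 12.2% and 9.01% of all genes and 7.69% and 15.1% of the abundant genes. Past 1.5-fold, the members were as rare as all genes. Their summed share of the FPKM was 1.99% in wildtype and 2.14% in hypomorphic ganglia.

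All 3 genes past 1.5-fold had single-digit levels. *Rpl24* was 0.590 FPKM in wildtype and 1.03 in hypomorphic ganglia (0.71), *Rpl26* was 5.71 and 8.71 (0.60), and *Rpl10a*, of the large subunit's L1 arm, was 2.06 and 1.28 (-0.64). Next in size were *Rpl35a* at 3.16 and 4.76 (0.58), *Rpl19* at 2.04 and 2.90 (0.49), and *Rpl36* at 7.57 and 10.3 (0.44). Among the lowest in level besides *Rpl24* and *Rps12* were *Rpl36a* at 1.05 and 1.34 FPKM (0.33) and *Rpl27* at 1.13 and 1.53 (0.41). On the other side of 0 stood *Rps12* at 1.61 and 1.33 (-0.26), *Rpl7a* at 14.3 and 12.2 (-0.22), *Rpl12* at 1.93 and 1.64 (-0.22), and *Rpl30* at 52.6 and 46.2 (-0.19).

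The spread of the ratios went with the level. Among the 20 members with a mean under 5 FPKM, ratios ran from -0.64 to 0.71 (SD 0.33 across genes). Among the 31 with a mean of 50 FPKM or more, they ran from -0.07 to 0.24 (SD 0.07 across genes), 28 of 31 were above 0, and none was past 1.2-fold. Among the genes with the highest FPKM were *Rpl8*, of the large subunit core, at 791 and 833 FPKM (0.08), *Rplp1* at 648 and 687 (0.09), *Rpl4* at 501 and 556 (0.15), and *Rps26* at 522 and 534 (0.03). *Rplp0* and *Rps20*, past 2-fold at E11.5, both had the ratio 0.03 here. The median of the 31 genes was 0.09, and whether it exceeds the spread between libraries could not be tested.

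**Figure D4:**
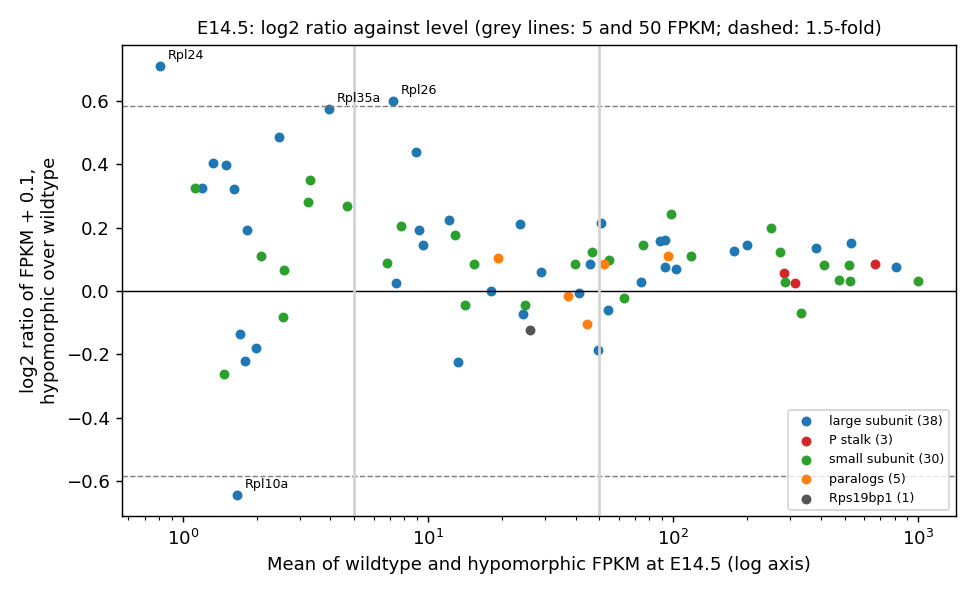
Log2 ratio of FPKM + 0.1, hypomorphic over wildtype (y axis), against the mean FPKM of both columns at E14.5 (x axis, log axis), 1 point per gene, coloured by part of the ribosome; grey lines mark 5 and 50 FPKM, dashed lines 1.5-fold. The points past 1.5-fold (*Rpl24*, *Rpl26*, *Rpl10a*) all lie left of 10 FPKM, and the 31 genes at 50 FPKM or more lie between -0.07 and 0.24.

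Related genes at E14.5 were near 0 too. The TOP translation factors had a median of 0.08, with 13 of 17 above 0 and 0 past 1.5-fold. Ribosome biogenesis genes had a median of 0.02 (38 of 65 above 0), RNA polymerase I genes 0.03, the Myc family -0.07, and mTORC1 and TOP control genes -0.07 (12 of 16 below 0), with 0 genes past 1.5-fold in any of these lists. The ends of the TOP list were *Eef2* (-0.09) and *Eif4b* (-0.02), and *Nap1l1* (0.24) and *Npm1* (0.28). Those of the initiation factors outside that list, with a median of -0.01, were *Eif6* and *Eif2b3* (both -0.13), and *Eif1ax* (0.14) and *Eif2s3x* (0.18). For biogenesis they were *Bop1* and *Rrp12* (both -0.16), and *Emg1* (0.15) and *Nop58* (0.18), and for RNA polymerase I *Taf1c* (-0.20) and *Polr1e* (-0.17), and *Ubtf* (0.08) and *Polr1c* (0.16). For the Myc family they were *Myc* (-0.45) and *Mnt* (-0.24), and *Mycl* (0.01) and *Mxd3* (0.33), and for mTORC1 and TOP control *Akt1s1* (-0.18) and *Eif4ebp1* (-0.17), and *Eif4ebp2* (0.04) and *Rps6kb1* (0.07). *Fau* had -0.05 and *Gnb2l1* 0.08. Beside them, proliferation genes were above 0 for 12 of 12 (458 and 663 FPKM summed, median 0.52), endothelial markers for 6 of 6 (69 and 97 FPKM), and erythroid markers for 15 of 16 listed (5641 and 6858 FPKM). Neural crest and glial markers were above 0 for 7 of 8 (372 and 418 FPKM), mesenchyme for 8 of 8 (1409 and 1570 FPKM), macrophage for 4 of 4 listed (21 and 25 FPKM), and yolk sac and trophoblast for 4 of 4 listed (16 and 24 FPKM). Sympathetic neuron markers were below 0 for 6 of 10 (4766 and 3933 FPKM). Their part in the ribosomal protein ratios was not tested.

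Levels of the genes differed between the tables far more than between genotypes. Set side by side, with no test because the tables were normalized separately, the median was 756 FPKM in E11.5 control and 28.3 FPKM in E14.5 wildtype ganglia. At E14.5, 20 members stood under 5 FPKM, and 19 of these had 100 FPKM or more at E11.5. *Rpl24* was 655 FPKM at E11.5 and 0.590 at E14.5, and *Rps12* was 1108 and 1.61. In contrast *Rpl8* was 1020 and 791, *Rps3*, with a role at the mRNA entry, was 382 and 261, and *Rpl30* was 58.4 and 52.6. In the wildtype column of E14.5 the highest and lowest member were 1663-fold apart. The order of the genes was kept within a stage (rho 0.96 at E11.5 and 0.996 at E14.5) but hardly between control columns of the stages (rho 0.24 over 75 genes).

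The levels between stages went with how much of the coding sequence occurs elsewhere in the genome. For each gene the share of 90-base windows of the coding sequence found letter for letter at another place in mm9 was counted, 90 bases being the length of a read. In 62 of the 83 matched members (74.7%) 50% or more of the windows were copied, against 94 of 640 other genes with 100 FPKM or more in E11.5 controls (14.7%). There were 3 members with no copied window, *Rps3* and *Rps19bp1* among them, and 24 members had every window copied. Across 74 members in both tables the share copied went with the E14.5 to E11.5 ratio of control levels (Spearman's rho -0.81). It also went with the E14.5 wildtype level (-0.71), but not with the E11.5 control level (0.09). It did not go with the E11.5 ratio of CKO over control either (0.01 over 81 members). These are descriptions across genes that share libraries.

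By class of copying, the fold of the E11.5 over the E14.5 level was taken for each gene. Its median was 1.10-fold for members with no copied window (3 genes). With under 50% copied it was 2.59-fold (18 genes), with 50 to under 100% it was 16.6-fold (33 genes listed at both stages and 4 without an E14.5 row), and with every window copied it was 199-fold (20 genes and 3 without a row). For other genes, which entered by an E11.5 control level of 100 FPKM or more, so that their folds are tied to that choice, the medians were 0.988-fold for 409 genes with no copied window, 1.85-fold for 137, 9.62-fold for 63, and 20.3-fold for 24.

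**Figure D5:**
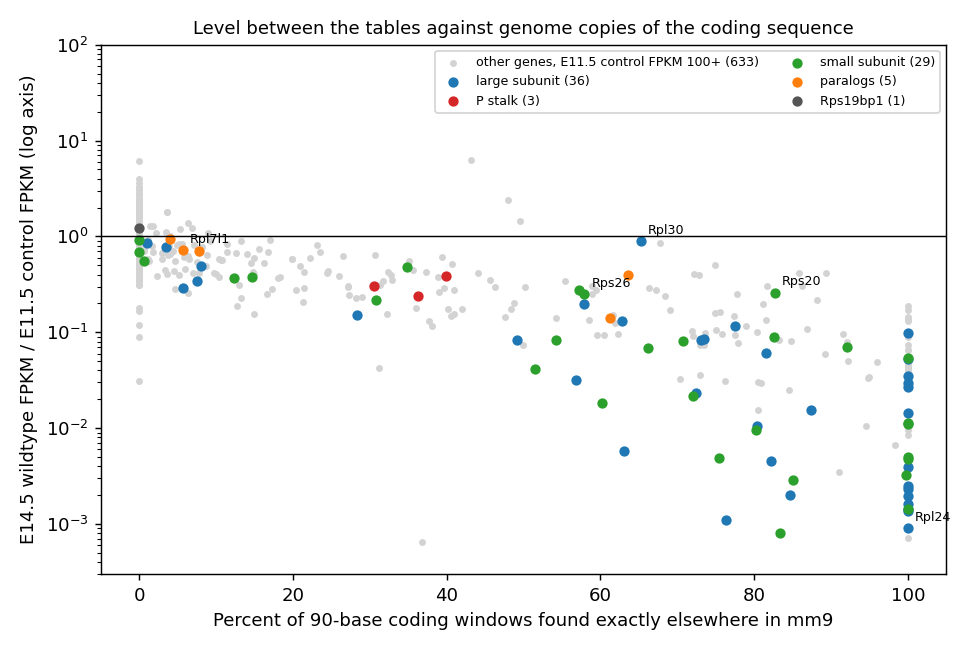
E14.5 wildtype FPKM divided by E11.5 control FPKM (y axis, log axis) against the percent of 90-base windows of the coding sequence found exactly elsewhere in mm9 (x axis), 1 point per gene, for the ribosomal protein genes (coloured) and for other genes with 100 FPKM or more in E11.5 control ganglia (grey). The median E11.5 over E14.5 level of the 3 ribosomal protein genes with no copied window is 1.10-fold, though other genes with none spread to both sides of 1, and ribosomal protein genes with every window copied reach down to *Rpl24*, whose E11.5 level was 1109-fold its E14.5 level.

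Single genes show where the copies lie. *Rpl24*, on chr16:55966388-56009026 (mm9), has every window copied, and its best single copy, with 99.8% identity over 474 aligned bases, lies on chr9:115949708-115950181, at the annotated pseudogene *Gm9385* within *Gadl1*. *Rps12* has a copy without a mismatch over all 399 coding bases on chr19:59396861-59397259, annotated as *Rps12-ps3* within *Pdzd8*. *Rpl10*, whose protein joins the large subunit late, has one over 645 bases on chr9:50152402-50153046, annotated as *Rpl10-ps3*, and stood at 874 and 1.71 FPKM. Not every gene followed this order: *Rps20* had 82.7% of windows copied but was 1090 and 283 FPKM, and *Rpl30* had 65.3% copied and was nearly equal in both.

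Some copies had rows of their own, which the rule leaves out. *Rplp2-ps1* stood at 2.31 FPKM in E11.5 control and 268 in E14.5 wildtype ganglia, while *Rplp2* was 1168 and 277. *Rpl14-ps1* stood at 13.1 and 289 FPKM, while *Rpl14* was 427 and 83.5. *Rpl34-ps1* was 519 FPKM at E11.5, where *Rpl34* had no row of its own and a row that joins both held 251. How the reads that match both were assigned in each table was not tested.

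Among ribosomal proteins outside the rule, *Fau*, with every window copied, was 689 FPKM at E11.5 and 28.9 at E14.5, and *Gnb2l1*, with none copied, was 761 and 585.

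The comparison of genotypes was also made by class of copying. With under 50% of windows copied exactly, 20 of 21 members were above 0 at E11.5, 14 were past 1.5-fold higher, and the median was 0.74. With 50% or more copied, 60 of 60 were above 0, 35 were past 1.5-fold higher, and the median was 0.63. At E14.5 the medians were 0.08 for 21 members and 0.10 for 55, and all 3 genes past 1.5-fold had 50% or more of their windows copied. Among the 12 with under 10% copied, the E11.5 median was 0.51 with 5 past 1.5-fold higher. These 12 include *Rps19bp1* and the low paralogs *Rpl7l1*, *Rps4l*, and *Rps27l*, whereas among others *Rps3* (382 and 636 FPKM, 0.74), *Rps21* (609 and 1110, 0.87), and *Rpl32* (1054 and 1761, 0.74) were past 1.5-fold.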

How the data were processed

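RNA-seq libraries were made by the authors from polyA RNA with the SMARTer kit, sequenced as 90-base pairs, and aligned to mm9 with TopHat, and uniquely mapped reads were given to cuffdiff. The submitters' processing notes name TopHat 1.3.1, Cuffdiff 1.3.0, Bowtie, and a fly build, dm3, and this conflict was not settled. The deposited FPKM values combine the 2 libraries of a genotype, with no gene under 1 FPKM in both columns. The authors' columns of log2 fold changes and p-values were not used. Log2 ratios of FPKM + 0.1 were computed with Python 3.11.15, numpy 2.4.6, and pandas 2.3.3, and their recovery was tested on simulated data. Coding sequences (GENCODE M1, mm9; transcript 001, else 201, else the longest) were aligned to mm9 with blastn 2.17.0 (megablast, 90% identity, own locus and 1000 bases around it left out). Paralogs were aligned on coding bases, since no protein table was used here. Members and lists were chosen with earlier results of these data known, and the measure of copying was added after the values had been seen.

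Named were the P stalk and paralog genes, members listed at 1 stage only, the 5 highest and 5 lowest by mean FPKM and by log2 ratio at each stage, every member past 1.5-fold at either stage, *Rps19bp1*, *Isl1*, the 5S RNP, X-linked, and mouse mutant subsets, the ribosomal proteins outside the rule, and the 2 highest and 2 lowest of each related list. Other genes were named after their values had been seen, and some genes the rule names are not reported here.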

Additional observations from a re-analysis of the deposited data

Results flagged for a closer look

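*Rpl10a* was past 1.5-fold higher in CKO ganglia at E11.5 (524 and 899 FPKM, log2 ratio 0.78) and past it lower in hypomorphic ganglia at E14.5 (2.06 and 1.28 FPKM, -0.64), and the difference was not tested. Every 90-base window of its coding sequence has an exact copy elsewhere in mm9.

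The pseudogene row *Rpl31-ps12*, outside the rule, stood at 7.41 FPKM in CKO and 3.24 in control ganglia at E11.5 and had no row at E14.5. *Rpl31* was 333 and 515 FPKM at E11.5.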

How the results depend on the processing

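Leaving out single libraries could not be run, since each column combines the 2 libraries of a genotype. No paired analysis was possible because no column carries a replicate. Without replicates no error can be given, and the tables give no depth.

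Of the values recomputed, 91 summaries moved by at most 0.1 (log2) or 1.5 times and 35 by more. No value called past 1.5-fold changed sign, but some medians near 0 did. Without the erythroid genes the E11.5 median of initiation factors went from 0.04 to -0.20. That of mitochondrial ribosomal proteins went from 0.08 to -0.15, and that of all genes from 0.05 to -0.18. At E11.5, rescaling without erythroid genes gave a median of 0.40 for the ribosomal proteins (14 past 1.5-fold higher, 1 lower), 0.35 for the large subunit, 0.66 for the P stalk, 0.45 for the small subunit, and 0.044 for the paralogs. It gave 0.44 for the ribosomal proteins outside the symbol rule, 0.38 for TOP factors, -0.20 for initiation factors, -0.46 for ribosome biogenesis, -0.40 for RNA polymerase I, -0.34 for the Myc family, -0.60 for mTORC1 and TOP control, and -0.15 for mitochondrial ribosomal proteins. Rescaling without the members gave 0.31, with 6 higher and 1 lower, where 10.3% and 27.2% of all genes were. At a threshold of 1.2-fold 76 were higher and 1 lower, against 34.8% and 27.5% of all genes. At 2-fold 5 were higher, and no share of all genes is given here to set beside them. With under 50% of windows copied, an alternative chosen after seeing the data, the median was 0.74 with 14 higher. These shifts follow from the scaling, the threshold, or fewer genes counted.

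At E14.5, where 2 genes were past 1.5-fold higher and 1 lower, a pseudocount of 1 left 0 and 0, a filter of 5 FPKM in either column 1 and 0, and one of 1 FPKM in both columns 1 higher. Without members of transcripts under 536.5 bases 1 was higher, at 1.2-fold 13 were higher, at 2-fold 0 and 0, and with under 50% of windows copied 0 and 0. At the main setting 2.89% of all genes were higher and 2.12% lower, and at 1.2-fold 12.2% were higher. For the other settings no share of all genes is given here. TOP runs within 2 bases of the start were in 35.1% of canonical members.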

Other observations

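Mitochondrial ribosomal proteins, which build the separate ribosome of mitochondria from nuclear genes, stood apart from the cytosolic set at E11.5. Of 77 genes, 49 were above 0 and 0 past 1.5-fold in either direction, with a median of 0.08 and the lowest ratios in *Mrps25* (14.3 FPKM in control and 10.4 in CKO, -0.46) and *Mrps6* (66.4 and 49.4, -0.43). The highest were those of *Mrpl30* (57.5 and 81.4, 0.50) and *Mrps16* (36.5 and 51.9, 0.51). At E14.5 the median over 76 genes was 0.01, and none was past 1.5-fold.

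The *Rps6k* genes, a kinase family named after the ribosomal protein Rps6, were left out by the rule. Of 10 genes at E11.5, 6 were below 0, with a median of -0.25. *Rps6kb1*, the main S6 kinase, was 19.97 FPKM in control and 14.8 in CKO (-0.43), *Rps6ka6* was 27.5 and 16.4 (-0.74), and *Rps6ka4* was 2.34 and 5.28 (1.14). At E14.5 the median was 0.05 and none was past 1.5-fold.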
